A study of Mus musculus with 12 samples.

Results

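Mouse embryonic fibroblasts in primary culture, which are connective tissue cells taken straight from embryos, were compared between the genotypes labelled Blm -/- (Blm KO) and wild type (WT), with 3 libraries a side. These 6 libraries were chosen by their genotype labels out of the 12 in the study, which also holds 3 libraries labelled Recql -/- (Recql KO) and 3 labelled Blm -/- Recql -/- (double KO). Polyadenylated RNA was sequenced to ask which transcripts differ between genotypes. No agent was applied, and all cells were kept at 3% O2 and 5% CO2 in medium with 10% serum. The labels give no mouse strain, no allele design and no age, and nothing in them tells if separate embryos or cultures stand behind the libraries of 1 genotype. The p-values below therefore measure only the spread between libraries, estimated over all 12. In WT that spread may be technical, while the Blm KO libraries differed among themselves in sex-linked transcripts, as given below.

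BLM is a DNA helicase of the RecQ family. With topoisomerase III alpha and the RMI proteins it takes apart the crossed DNA molecules left by homologous recombination, and it helps stalled replication forks to restart. Its loss in people causes Bloom syndrome, which is known for excess exchange between sister chromatids, small stature and a high rate of cancer, and cells without it are known to pass through mitosis with entangled chromosomes.

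The 6 libraries held 52619662 to 59296354 expected counts, the estimated counts that result when ambiguous reads are shared out among genes. Levels are given as CPM, counts per 1000000 counts of a library after scaling between libraries. The 3 WT libraries were high in Y-linked transcripts (the sum of Uty, Kdm5d, Eif2s3y and Ddx3y was 249, 229 and 257 CPM), and so was Blm KO 1 (247 CPM), whereas Blm KO 2 and Blm KO 3 held 1.39 and 3.44 CPM. Xist, the RNA that coats the inactive X chromosome, went the other way, at 0.536, 3.08 and 0.152 CPM in WT and 11.7, 370 and 473 CPM in Blm KO. Blm KO 2 and Blm KO 3 thus differed from all WT libraries both in the Blm label and in sex-linked transcripts. Fibroblast markers were abundant in all 6 libraries: Col1a1, a fibrillar collagen gene, lay at 9590 to 10200 CPM in WT and 10700 to 15000 CPM in Blm KO.

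Blm itself was examined first. It stood at 21.9, 21.7 and 18.6 CPM in WT and at 5.64, 3.18 and 3.58 CPM in Blm KO. All Blm KO libraries lay below all WT libraries, and the remaining level was 19.9% of WT (log2 -2.33 ± 0.24 SE, edgeR adjusted p = 0.00211). Blm was also low in the libraries labelled double KO (5.66, 6.99 and 3.85 CPM) and not in those labelled Recql KO (14.3, 16.4 and 16.1 CPM). Which part of the transcript remained is not visible in gene-level counts.

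Across 14876 genes tested, 112 (0.753%) were called, meaning an adjusted p under 0.05 by edgeR's quasi-likelihood test. Of these, 54 (0.363% of tested genes) were higher and 58 (0.39%) lower in Blm KO. An unadjusted p under 0.05 was reached by 2806 genes (18.9%), with 9.12% of tested genes higher and 9.74% lower, and the libraries of the groups did not overlap for 24.8% of genes. The median log2 fold change of all genes was 0. Values written as log2 below are log2 fold changes of Blm KO over WT with their standard error (SE). DESeq2 called 968 of 14856 genes, 409 higher and 559 lower, among them all 112. Its counts for gene lists below are to be read against these, and list counts at an unadjusted p under 0.05 against the 18.9%. The number of edgeR calls moved with the libraries used: it was 40, 31 and 56 without WT 1, WT 2 and WT 3 in turn, and 34 without Blm KO 3. Libraries outside the comparison entered through the shared estimate of the spread. The number was 56, 48 and 55 without Recql KO 1, 2 and 3, 572 without double KO 2 and 237 without double KO 3. Double KO 2 had a Y-linked sum of 249 CPM, against 3.36 and 6.25 CPM in double KO 1 and 3. A covariate for the Y-linked level left 43. A fit limited to libraries with high Y-linked transcripts left Blm KO 1 alone against 3 WT, so its calls are not counted. In it Blm, Gbp2b and Ifi202b had log2 fold changes of -1.87, 7.96 and 9.01. No called gene lay on the Y chromosome. All 112 kept their sign under every alternative tested. The alternatives reuse the same libraries, and the groups did not overlap for any called gene. A change of sign was therefore hardly possible, and the kept signs are no further support. The call was kept whichever of the 6 libraries was left out for 27 genes. Those higher were Ifi202b, Gbp2b, Map2, Hddc3, Ngrn, Pdgfrl, Uggt2, Klf13, 3110052M02Rik, Phf20, Tusc3 and Tmem181b-ps, and among those lower were Blm, Fmn2, Emx2os, Mnda, Rnaset2b, Tagap1, Atf3, Rint1, Zfp52, Zfp40, Zfp236, Fam107b, Rps15a-ps4 and Snhg3. The calls of the genes outside these 27 were each lost in at least 1 of those 6 fits.

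Map2, Gfra2, Cd200 and Pdgfrl were among the 20 named genes with the largest rises. Map2, which encodes a microtubule-associated protein best known from neurons, stood at 68.4, 35.6 and 51.6 CPM in WT and at 213, 395 and 348 CPM in Blm KO. The rise was 6.15-fold (log2 2.62 ± 0.31 SE, edgeR adjusted p = 0.00432). The lowest Blm KO library was above the highest WT library. Gfra2, the receptor for the growth factor neurturin, was at 3.64, 3.37 and 1.78 CPM in WT and at 92.9, 50.6 and 80.4 CPM in Blm KO (log2 4.67 ± 0.79 SE, edgeR adjusted p = 0.0289, and up to 0.144 without 1 of the 6 libraries). Among the double KO libraries Gfra2 was at 22.3 CPM in double KO 3 and at 3.81 and 2.49 CPM in the others. Cd200, a surface glycoprotein that restrains myeloid cells, rose from 3.23, 3.3 and 5.02 CPM to 15.4, 21.3 and 13.2 CPM. Pdgfrl, a gene related to the platelet-derived growth factor receptors, rose from 22.5, 18.7 and 16.7 CPM to 75.5, 73.7 and 70.5 CPM (3.8-fold, edgeR adjusted p = 0.00134). In both genes the Blm KO libraries sat well apart from WT, and for Pdgfrl they differed among themselves by little.

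Further named genes that rose have varied roles. Atp10d, a phospholipid flippase, rose 5.5-fold, from 3.47, 3.49 and 3.7 CPM to 16.4, 28.4 and 13.9 CPM. Uggt2, a glucosyltransferase that marks misfolded glycoproteins in the endoplasmic reticulum, rose from 40.7, 28.5 and 34.1 CPM to 99.8, 117 and 111 CPM (3.17-fold, log2 1.67 ± 0.13 SE, edgeR adjusted p = 0.000305). Nalcn, the sodium leak channel, rose from 0.37, 0.38 and 0.417 CPM to 1, 2.35 and 2.18 CPM. Sytl1, which binds Rab27 on secretory vesicles, rose 9.89-fold to 2.93, 5.89 and 5.08 CPM, or by a log2 fold change of 4.11 in place of 3.31 without WT 3. Syt17, a synaptotagmin, rose 2.39-fold. The metabolic genes that rose were Me3 (mitochondrial malic enzyme, 3.75-fold), Acad10 (an acyl-CoA dehydrogenase family member, 3.03-fold) and Car11 (a carbonic anhydrase relative without enzyme activity, 4.14-fold). Klf13, a transcription factor gene of the Krüppel-like family, rose as well, from 69.8, 101 and 81 CPM to 159, 196 and 172 CPM.

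Genes that fell included members with almost no reads in Blm KO. Ndufs5, which encodes a subunit of respiratory complex I, stood at 8.34, 21.6 and 23.7 CPM in WT and at 0.0339, 0.176 and 0.221 CPM in Blm KO (log2 -6.94 ± 1.19 SE, edgeR adjusted p = 0.0313). Its call was lost in each fit without 1 of the 6 libraries (edgeR adjusted p = 0.0582 to 0.167). In the double KO libraries Ndufs5 was at 0.679, 16 and 14.8 CPM, so that 1 of those 3 was low and the others near WT. Klra18, a gene of the Ly49 family of natural killer receptors, had 121 counts in WT and 0 in Blm KO, so it was at least 43.6-fold lower when 3 counts for the whole group are taken as the floor. Clec2h, a C-type lectin gene, had 48 counts and 0, or at least 17.3-fold lower. Within WT, Klra18 ranged over 0.129, 0.744 and 1.35 CPM. Of the 6 fits without 1 library, Klra18 kept its call in 1 and Clec2h in 0 (edgeR adjusted p up to 0.156 and 0.172). Klra18 and Clec2h belong to large gene families. They were named after their values were seen, since their level was under the minimum of the naming rule. Floors and counts cover counting error only.

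Further down the list, Fmn2, an actin-nucleating formin, fell from 3.23, 5.65 and 2.5 CPM to 0.644, 0.439 and 0.29 CPM (8.26-fold, edgeR adjusted p = 0.00432). Slitrk5, a membrane protein of neuronal contacts, fell from 9.7, 11.2 and 12.1 CPM to 2.69, 2.06 and 3.02 CPM. Lepr, the leptin receptor, fell from 4.62, 8.06 and 5.35 CPM to 2.41, 1.16 and 1.89 CPM. The groups did not overlap for any of these 3 genes, and Lepr lost its call in each fit without 1 of the 6 libraries (edgeR adjusted p = 0.0572 to 0.211). Pop4, a protein subunit of ribonucleases P and MRP, fell from 38.9, 41.7 and 34.5 CPM to 9.76, 10.3 and 10.3 CPM (3.79-fold, edgeR adjusted p = 0.0194). The Pop4 values within Blm KO were almost equal, while the double KO libraries ranged from 10 to 30.2 CPM. Atf3, a stress-induced transcription factor of the AP-1 type, fell from 8.59, 8.87 and 6.75 CPM to 3.12, 3.27 and 2.96 CPM (2.59-fold, edgeR adjusted p = 0.00432). Smaller falls were seen in Rint1, which acts in transport between Golgi and endoplasmic reticulum (2.09-fold), Nr4a3, an inducible nuclear receptor (1.89-fold), and Apaf1, the scaffold of the apoptosome (1.25-fold). Those 3 were also named after their values were seen.

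Emx2, a homeobox gene of the developing urogenital tract and forebrain, and Emx2os, the transcript antisense to it, fell together. Emx2 was at 20.8, 24.3 and 12.5 CPM in WT and 7.25, 6.61 and 3.73 CPM in Blm KO (3.27-fold, edgeR adjusted p = 0.0235), and Emx2os at 4.16, 3.89 and 3.81 CPM and 0.525, 0.615 and 0.409 CPM (7.63-fold, edgeR adjusted p = 0.000236). The groups did not overlap for either transcript. The strand setting of the counts is not given in the sources used here, so reads of the pair cannot be told apart with certainty. Emx2 was the one call among 41 Hox and regional factor genes, whose median log2 fold change was 0.13. En1, a homeobox factor of limb and hindbrain, did not pass, at 11.3, 16.5 and 7.79 CPM in WT and 4.3, 2.58 and 2.25 CPM in Blm KO (log2 fold change -1.97, edgeR adjusted p = 0.0506).

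**Figure D1:**
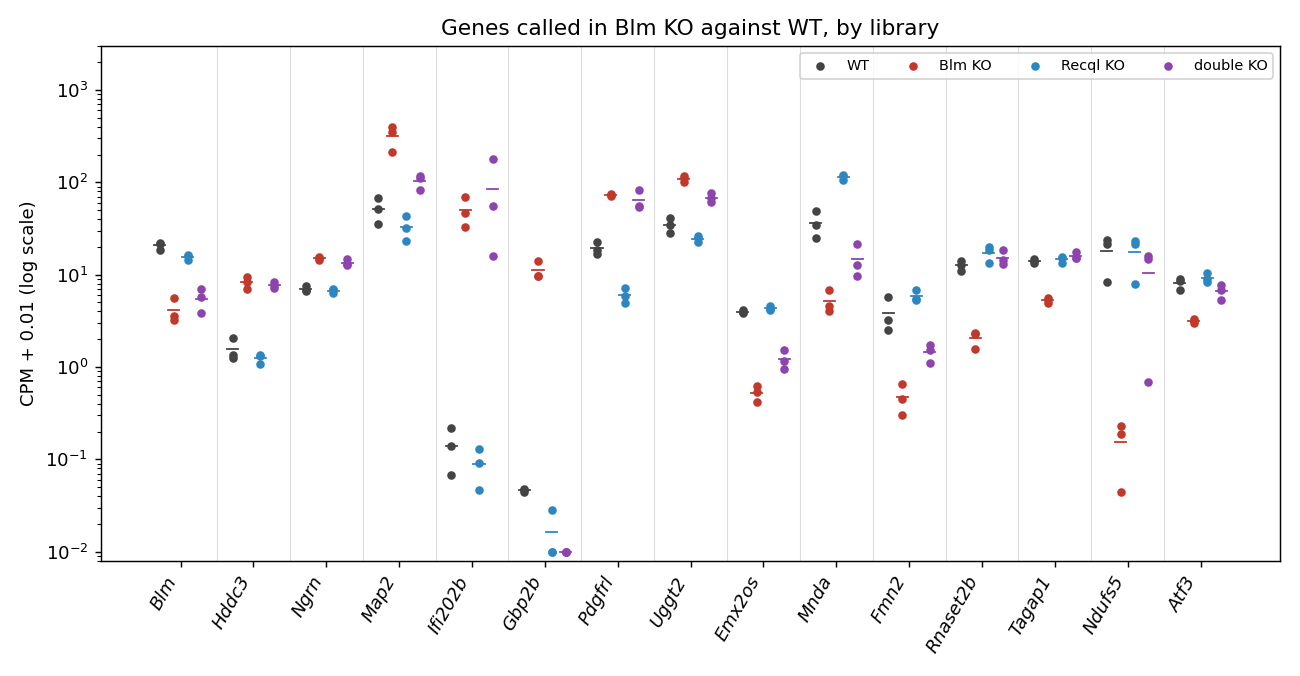
CPM plus 0.01 on a log axis for 15 called genes in all 12 libraries; each point is a library, short bars are group means, and colours mark the 4 genotypes. The Blm KO points lie clear of the WT points for every gene shown, while the double KO points lie near Blm KO for Hddc3 and Ngrn and near WT for Rnaset2b and Tagap1, and are spread for Ndufs5.

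Besides Blm, 4 called genes with roles at centromeres, on the spindle or on replicating DNA were picked, and these were lower in Blm KO, as were 58 of the 112 calls. Hjurp, the chaperone that places the centromeric histone CENP-A, fell from 35.5, 40.4 and 33.8 CPM to 18.5, 11.8 and 13 CPM (2.53-fold, edgeR adjusted p = 0.0411). The entries 6430706D22Rik (log2 fold change -1.97, edgeR adjusted p = 0.00755) and A730008H23Rik (-1.58, edgeR adjusted p = 0.0271) were also called and were placed at the position of Hjurp. These calls may therefore describe 1 locus. Cenpk, a protein of the inner kinetochore, fell from 8.96, 6.16 and 7.22 CPM to 4, 2.86 and 3.22 CPM (2.21-fold, edgeR adjusted p = 0.0409). Ckap2, a spindle protein that is also a listed p53 target, fell from 69.8, 68.7 and 70.8 CPM to 43.9, 50 and 41.6 CPM (1.54-fold, edgeR adjusted p = 0.0426). 2810417H13Rik, whose RefSeq name is Pclaf and whose product binds the replication clamp PCNA, fell from 89.5, 104 and 86.1 CPM to 38.6, 30.2 and 29.6 CPM (2.84-fold, edgeR adjusted p = 0.0383). Cenpk, 2810417H13Rik and this grouping were chosen after the values were seen. None of the 4 kept its call in every fit that left out 1 of the 6 libraries, with edgeR adjusted p up to 0.211 for Hjurp, Cenpk and Ckap2 and 0.199 for 2810417H13Rik. In the double KO libraries against Recql KO, Cenpk and Ckap2 were again called lower (log2 fold changes -0.86 and -0.54), and Hjurp (-0.37) and 2810417H13Rik (0.19) did not pass. Of the entries at the position of Hjurp, 6430706D22Rik was called lower there (-0.77) and A730008H23Rik did not pass (-0.74). Their calls against WT were kept in 5 and 1 of the 6 fits without 1 library.

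The wider lists of dividing-cell genes lay below WT almost throughout without a single edgeR call. Of 35 genes of G2 and mitosis, 33 had all Blm KO libraries below all WT libraries, a pattern that 12.1% of all tested genes showed, and the median log2 fold change was -0.73. No member passed by edgeR, 33 had an unadjusted p under 0.05, and DESeq2 called 24 lower. Kif11, the motor that separates spindle poles, was at 101, 102 and 88.8 CPM in WT and 58.5, 42.2 and 42.4 CPM in Blm KO (log2 -1.03 ± 0.22 SE, edgeR adjusted p = 0.0629). Hmmr, a spindle assembly factor, was at 120, 113 and 101 CPM and at 65.6, 64.6 and 56.4 CPM (log2 fold change -0.84, edgeR adjusted p = 0.0637). Mki67, the proliferation antigen Ki-67, was at 430, 365 and 308 CPM and at 269, 191 and 193 CPM. With the edgeR fit on the 6 libraries alone 12 of the 35 were called lower, and without double KO 2 the number was 22. A covariate for the Y-linked level gave 0 again, with a median of -0.63. In double KO minus Recql KO the list went the other way: 34 of the 35 were positive, the median log2 fold change was 0.53, and 13 were called higher and 1 lower, against 13.2% higher and 11.6% lower of all tested genes. The difference of the 2 effects was called for 28 of the 35, against 10.4% of all tested genes. Kif11 was at 46.3, 56 and 63.1 CPM in Recql KO and 72.4, 100 and 52.3 CPM in double KO (log2 fold change 0.44, not called), and its difference of effects was 1.47 (edgeR adjusted p = 0.0178). For Hmmr that difference was 1.24 (edgeR adjusted p = 0.0167). The levels of Kif11 in the libraries labelled Recql KO all lay below those of WT.

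Of 40 genes of DNA replication and S phase, all had a negative log2 fold change, and the median was -0.58. Of these genes 37 lay wholly below WT, as did 12.1% of all tested genes. EdgeR called 0, 34 had an unadjusted p under 0.05, and DESeq2 called 17 lower. The edgeR fit on the 6 libraries alone called 1 lower and the fit without double KO 2 called 14. In double KO minus Recql KO the median of the list was -0.19, with 2 called lower, 0 higher and 3 with a called difference of effects. Of all tested genes, 11.6% were called lower there, 13.2% higher, and 10.4% had a called difference, so these counts do not set the list apart. Rrm2, the regulated subunit of ribonucleotide reductase, was at 132, 182 and 144 CPM in WT and 74.1, 91.4 and 80.4 CPM in Blm KO (log2 fold change -0.90, edgeR adjusted p = 0.104). Mcm6, a subunit of the replicative helicase, was at 114, 137 and 108 CPM and at 90.5, 67 and 77.1 CPM, and Pold1, the catalytic subunit of DNA polymerase delta, at 16, 22.6 and 17.2 CPM and at 12.1, 8.82 and 11.5 CPM. For each of these genes the highest Blm KO library was below the lowest WT library. In bulk RNA, fewer cells in a phase and less RNA per cell cannot be told apart. Blm KO 1, the library high in Y-linked transcripts, lay nearest to WT: the per-library list medians were -0.55, -0.75 and -0.84 for G2 and mitosis and -0.37, -0.73 and -0.64 for replication, in Blm KO 1 to 3, relative to the WT mean. The part of the sex-linked difference in these values was not tested.

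Genes that work with BLM were read against the same background. Of 20 RecQ helicases and BLM partners, 18 had a negative log2 fold change and 8 lay wholly below WT (12.1% of all tested genes did), with a median of -0.26. EdgeR called 0, or 2 lower without double KO 2, 7 had an unadjusted p under 0.05 and DESeq2 called 4 lower. Exo1, the exonuclease that resects DNA ends beside BLM, was at 15.5, 18.1 and 15.1 CPM in WT and 9.81, 6.78 and 7.1 CPM in Blm KO (log2 fold change -1.04, edgeR adjusted p = 0.0637). Fancm, which recruits the BLM complex to stalled forks, was at 27.2, 28.6 and 30.5 CPM and at 23.6, 19.3 and 20.5 CPM. Recql did not pass (25.7, 28.1 and 29.3 CPM against 21.3, 24.1 and 21.9 CPM, log2 fold change -0.30, edgeR adjusted p = 0.421). For 30 homologous recombination and Fanconi anemia genes the median was -0.27, with 0 edgeR calls, 16 at an unadjusted p under 0.05 (2 higher and 14 lower) and 8 lower by DESeq2. Without double KO 2 edgeR called 5 of these 30 lower, and on the 6 libraries alone 2. Fanca was at 12.3, 17.6 and 13.9 CPM in WT and 7.64, 6.03 and 7.48 CPM in Blm KO. For 24 cohesin and condensin genes the median was also -0.27, with 0 edgeR calls, 13 at an unadjusted p under 0.05 (1 higher and 12 lower) and 5 lower by DESeq2. Without double KO 2 edgeR called 5 lower, and on the 6 libraries alone 1. In double KO minus Recql KO 3 of the 24 were called higher and 0 lower (median 0.06). Of all tested genes, 13.2% were called higher and 11.6% lower there. Smc2 of condensin (log2 fold change -0.76) and Rad21 of cohesin (-0.30) had edgeR adjusted p = 0.115 and 0.174.

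Promoter sequences are shown for 3 of the called division genes, without Cenpk, and for the G2 and mitosis genes Kif11 and Hmmr. The genes were picked by hand, so their matches do not stand for the called genes or the list. Division genes of this kind are known for CCAAT boxes and for the CHR element TTTGAA close to their starts. Each line gives the 100 bases upstream of the RefSeq start in build GRCm38.p6, 5′ to 3′ on the gene's strand, with CCAAT (or ATTGG on the other strand) and TTTGAA (or TTCAAA) in capitals.
Hjurp, chr1:88277580-88277679, minus strand: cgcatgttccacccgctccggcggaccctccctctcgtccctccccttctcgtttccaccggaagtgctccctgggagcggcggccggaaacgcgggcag
Ckap2, chr8:22185820-22185919, minus strand: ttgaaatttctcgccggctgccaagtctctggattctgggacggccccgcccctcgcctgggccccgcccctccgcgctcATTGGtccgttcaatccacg
2810417H13Rik, chr9:65890223-65890322, plus strand: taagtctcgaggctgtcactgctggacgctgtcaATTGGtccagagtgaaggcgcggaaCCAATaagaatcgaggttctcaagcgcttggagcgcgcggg
Kif11, chr19:37376282-37376381, plus strand: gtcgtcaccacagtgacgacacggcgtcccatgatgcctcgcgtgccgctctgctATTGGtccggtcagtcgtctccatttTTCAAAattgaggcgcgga
Hmmr, chr11:40733438-40733537, minus strand: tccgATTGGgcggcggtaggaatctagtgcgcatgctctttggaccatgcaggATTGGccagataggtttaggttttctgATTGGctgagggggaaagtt
The stretch of Hjurp held neither motif, that of Ckap2 held 1 CCAAT box, that of 2810417H13Rik 2, that of Kif11 1 together with 1 TTTGAA, and that of Hmmr 3. Of 32851 promoters in the table, 18.9% held CCAAT and 5.77% TTTGAA in the same window on either strand. The motifs did not overlap each other, and a match describes letters only.

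Calls were not spread evenly along the genome. Their share was 1.82% of tested genes on chromosome 17, 1.73% on chromosome 1 and 1.64% on chromosome 4, against 0.753% of all tested genes, 0.168% on chromosome 11 and 0 of 522 genes on chromosome 12. Positions are mm10 and were available for 14810 of the genes tested. Hjurp, 6430706D22Rik and A730008H23Rik were placed at the same position on chromosome 1 and were counted separately. Where neighbouring calls less than 3 Mb apart were joined, a rule set after the values were seen, the longest runs held 9, 8 and 6 called genes. A run begins and ends at called genes, so its share is a description. On chromosome 4, 9 of 51 tested genes between 129960374 and 133499645 were called, 7 of them lower. On chromosome 17, 8 of 29 were called between 5798657 and 9008319, namely 3300005D01Rik, Dynlt1b, Tmem181b-ps, Tagap1, Rnaset2b, Tagap, Rsph3a and 1700010I14Rik. On chromosome 1, 6 of 19 were called between 173896339 and 177796695, among them Mnda, Fmn2, Pld5 and Adss, which were lower, and Ifi202b, which was higher. Genes within a run moved in both directions on each of these chromosomes. A shorter run on chromosome 8 (39005351 to 41133983) held Tusc3, Pdgfrl and Mtus1, all higher, and all 3 were called the same way in double KO against Recql KO. Whether the cultures differed in strain background along these stretches was not tested, since the labels give no strain.

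**Figure D2:**
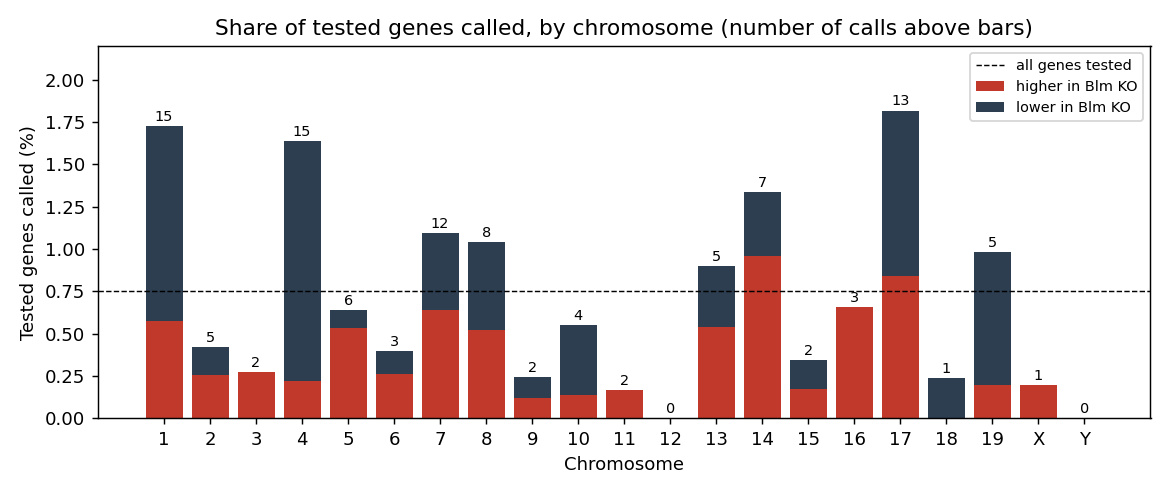
Percent of tested genes called on each chromosome, split into higher (red) and lower (dark) in Blm KO, with the number of calls above each bar and the share over all tested genes (0.753%) as a dashed line. Chromosomes 17, 1 and 4 stand highest, and chromosome 12 and the Y chromosome have no call.

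Near Blm on chromosome 7, 4 of 100 other tested genes within 10 Mb were called (4%, against 0.753% of all tested genes). Hddc3, which encodes the NADPH phosphatase MESH1 and lies 0.112 Mb from Blm, stood at 1.35, 2.07 and 1.25 CPM in WT and 9.37, 7.05 and 8.26 CPM in Blm KO (5.27-fold higher, edgeR adjusted p = 0.000421). In double KO it stood at 8.32, 7.23 and 7.78 CPM against 1.06, 1.31 and 1.33 CPM in Recql KO, so the Hddc3 levels of the labels with and without intact Blm fell into separate ranges. Ngrn, a mitochondrial protein gene at 0.194 Mb, followed the same order, with 6.62, 7.5 and 6.82 CPM in WT, 15.2, 14.5 and 15.5 CPM in Blm KO, 6.84, 6.9 and 6.29 CPM in Recql KO and 12.6, 13 and 14.6 CPM in double KO. Fam154b (2.18 Mb away) was lower, with 77 counts in WT and 14 in Blm KO, and Me3 (9.18 Mb away) was higher. All 4 were called in the same direction in double KO against Recql KO.

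Several calls concern genes whose reads are hard to assign, because a close relative shares a near-identical stretch of their sequence. Gpr137b, a lysosomal membrane protein gene, rose from 14.3, 16.5 and 13 CPM to 31.1, 51 and 44.4 CPM, while its pseudogene Gpr137b-ps fell from 23.6, 24.2 and 24.9 CPM to 4.1, 5.96 and 4.89 CPM. The pair were 99.7% identical over 672 aligned bases, of 3634 in the transcript of Gpr137b and 2997 in that of Gpr137b-ps, and the call of Gpr137b-ps was lost in each fit without 1 of the 6 libraries (edgeR adjusted p = 0.0632 to 0.192). Their sum was 38.8 ± 1.62 CPM in WT and 47.1 ± 11 in Blm KO (SD, n = 3). Tagap, a GTPase-activating protein of T cells, rose from 0.924, 0.726 and 1.38 CPM to 6.63, 6.66 and 5.86 CPM, and Tagap1 fell from 14.2, 14.8 and 13.5 CPM to 4.91, 5.27 and 5.61 CPM. They were 99% identical over 2152 bases, and the sum went from 15.2 ± 0.326 to 11.6 ± 0.248 CPM (SD, n = 3). In these pairs one copy rose and the other fell, and the sum moved far less than either. Rnaset2b, a lysosomal ribonuclease gene 99.1% identical to Rnaset2a, fell from 10.9, 14.1 and 12.8 CPM to 2.32, 1.56 and 2.27 CPM. Rnaset2a did not pass (67.5, 49.7 and 54.8 CPM against 51.6, 49.4 and 52.6 CPM), and the sum went from 69.9 ± 7.57 to 53.2 ± 2.04 CPM.

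The ribosomal protein pseudogenes Rps15a-ps6 (higher, 6.95-fold) and Rps15a-ps4 (lower, 4.83-fold) were 98.7% and 97.4% identical to their parent gene Rps15a. Raet1d, a ligand gene for the natural killer receptor NKG2D, fell from 11.7, 10.6 and 12.4 CPM to 2.53, 1.55 and 1.89 CPM, and was 96% identical to Raet1e. Raet1e was at 17.7, 12.7 and 16 CPM in WT and 7.71, 5.39 and 5.86 CPM in Blm KO and did not pass (log2 fold change -1.29, edgeR adjusted p = 0.107). The call of Raet1d was lost in each fit without 1 of the 6 libraries (edgeR adjusted p = 0.0811 to 0.223). Ugt1a6b, a glucuronidation enzyme gene 97.7% identical to Ugt1a6a over 1116 of its 2303 transcript bases, rose from 0.998, 1.37 and 2.43 CPM to 9.42, 3.95 and 11.5 CPM. Counts of all these genes are uncertain to the extent that reads were shared out between copies.

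**Figure D3:**
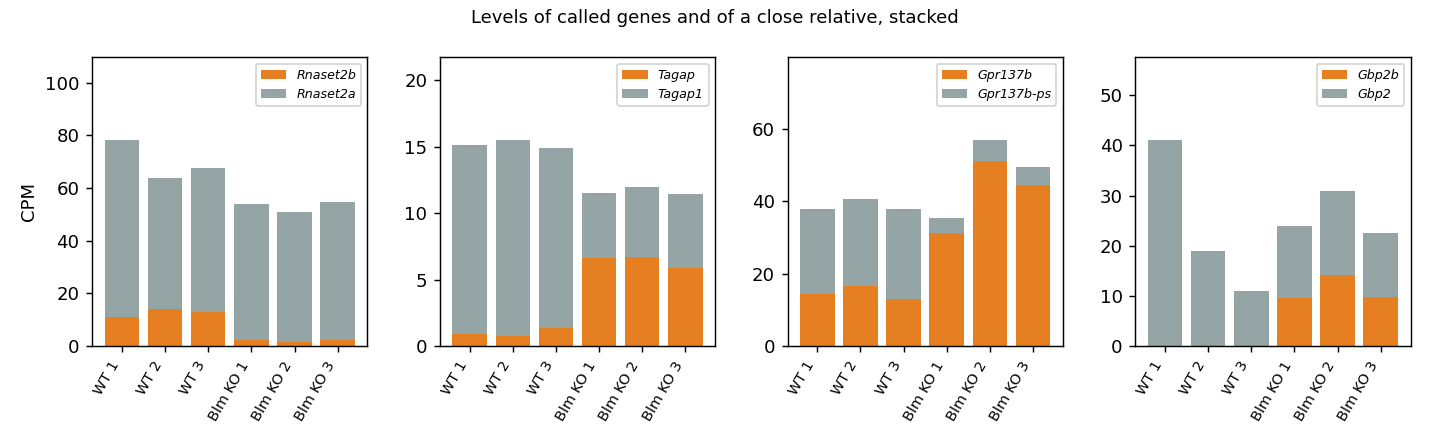
Stacked bars of CPM in the 6 libraries for a called gene (orange) and a close relative (grey), in 4 pairs. In the Tagap and Gpr137b panels the orange share grows from WT to Blm KO while the grey part shrinks, Rnaset2b shrinks beside a steady Rnaset2a, and Gbp2b is visible only in Blm KO.

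The largest rises were in interferon-inducible genes, while the interferon program as a list was not higher. Ifi202b, a DNA-binding protein gene of the Ifi200 family, stood at 0.129, 0.207 and 0.0569 CPM in WT and at 69.6, 32.6 and 46.9 CPM in Blm KO (log2 8.52 ± 1.01 SE, edgeR adjusted p = 0.00432). It was at 180, 55.6 and 16.1 CPM in double KO and at most 0.12 CPM in Recql KO. Mnda of the same cluster fell from 34.7, 48.4 and 24.7 CPM to 6.76, 4.08 and 4.6 CPM, and the neighbours Ifi203 and Ifi204 did not pass (log2 fold changes 0.88 and 0.41). Gbp2b, a guanylate-binding GTPase, had 6 counts over the WT libraries and 1937 over Blm KO (0.037, 0.0346 and 0.0379 CPM against 9.54, 14.1 and 9.78 CPM, log2 8.17 ± 0.40 SE, edgeR adjusted p = 0.000134). Gbp2b had 1 count over the Recql KO libraries and 0 over double KO, so no effect can be read for it in that pair. Its relative Gbp2, 83.4% identical over 1730 bases, did not pass, at 41.1, 19 and 11 CPM in WT and 14.3, 16.9 and 12.8 CPM in Blm KO. How far reads of Ifi202b and Mnda were shared with their relatives was not tested. In the Ifi200 cluster as a whole Ifi202b and Mnda were the calls among 11 genes (median -0.51, or 0.72 without WT 2), and among 17 guanylate-binding and immunity-related GTPases Gbp2b was the one call (median -1.11).

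Of 40 interferon-stimulated antiviral genes, 39 had a negative log2 fold change, with a median of -0.77, and 14 lay wholly below WT (12.1% of all tested genes did). EdgeR called 0, 2 had an unadjusted p under 0.05 and DESeq2 called 1 lower. Without WT 2, the WT library with the highest level of the list, the median was -0.46. Of 28 NF-kB and secreted inflammatory genes edgeR called 0, 15 had an unadjusted p under 0.05, DESeq2 called 9 lower, and the median was -1.17, or -0.28 without WT 1. The chemokine gene Ccl2 was at 168, 24.8 and 15.5 CPM in WT and 8.58, 11.3 and 8.84 CPM in Blm KO (log2 fold change -2.86, edgeR adjusted p = 0.112), and -1.07 without WT 1. Tnfaip3, an inhibitor of NF-kB that is itself induced by it, was at 49, 16.7 and 14.2 CPM and at 6.69, 11.8 and 7.05 CPM, with WT 1 again the highest.

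Matrix genes lay on the other side. Of 39 extracellular matrix genes, 32 had a positive log2 fold change, 15 had all Blm KO libraries above all WT libraries (12.6% of all tested genes did), and the median was 0.36. EdgeR called 0, 13 had an unadjusted p under 0.05 and DESeq2 called 7 higher. Fn1, the gene of fibronectin, was at 8690, 7730 and 7850 CPM in WT and 12700, 16800 and 13600 CPM in Blm KO (log2 0.83 ± 0.18 SE, edgeR adjusted p = 0.0666). Col1a2, a chain of type I collagen, was at 7040, 6730 and 5650 CPM and at 11600, 9150 and 11100 CPM (log2 fold change 0.71, edgeR adjusted p = 0.0613). Both were higher in each Blm KO library than in any WT library. Among 24 matrix proteases and inhibitors, Mmp19 passed, rising from 29, 27.9 and 26.4 CPM to 49.7, 37.1 and 47.4 CPM (1.61-fold, edgeR adjusted p = 0.0274). The call of Mmp19 was not kept in every fit without 1 of the 6 libraries (edgeR adjusted p = 0.0127 to 0.167).

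Stress and metabolic lists were mixed. Of 20 ATF4 and amino acid genes 14 were positive with a median of 0.24, and Atf3 was the one edgeR call and lower. DESeq2 called 6 higher and 1 lower. Trib3, a pseudokinase induced by ATF4, was at 26.2, 26.5 and 24.5 CPM in WT and 53.7, 36.6 and 70.2 CPM in Blm KO (log2 fold change 1.06, edgeR adjusted p = 0.0506). Of 19 chaperones of the endoplasmic reticulum Creld2 fell, 16 were negative, the median was -0.23, and DESeq2 called 6 lower. Hsp90b1, the chaperone GRP94, was at 2790, 2500 and 2670 CPM and at 1910, 2080 and 1980 CPM (log2 fold change -0.41, edgeR adjusted p = 0.118). All 24 cholesterol synthesis genes were negative, with a median of -0.61, 0 edgeR calls, 4 at an unadjusted p under 0.05 and 2 lower by DESeq2. Cyp51, which demethylates lanosterol, was at 345, 247 and 201 CPM in WT and 119, 163 and 103 CPM in Blm KO. The per-library medians of that list in Blm KO were -0.83, -0.16 and -0.86, with Blm KO 2 nearest to WT. Lists of 23 glycolysis and hypoxia genes and 24 respiratory chain genes had a median of 0 and no edgeR call, with 0 at an unadjusted p under 0.05 and 0 by DESeq2. A further 12 lists, on the replication checkpoint, G1 cyclins, nucleic acid sensing, MHC class I, contractile proteins, TGF-beta, Wnt and Notch, NRF2, histones, muscle, cartilage and fat, held 223 tested genes. EdgeR called 0 of these, 9 higher and 30 lower had an unadjusted p under 0.05, DESeq2 called 1 higher and 10 lower, and the list medians lay between -0.20 and 0.04.

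The p53 pathway showed no common shift. Of 29 p53 targets Ckap2 alone was called, 13 were positive and 16 negative, and the median was -0.02, or 0.08 without WT 3. Cdkn1a, the p53-induced inhibitor of cyclin-dependent kinases, was at 301, 347 and 363 CPM in WT and 328, 449 and 438 CPM in Blm KO (log2 fold change 0.26, edgeR adjusted p = 0.36). Mdm2, the ligase that degrades p53, was at 346, 285 and 300 CPM and at 210, 289 and 259 CPM (log2 fold change -0.30, edgeR adjusted p = 0.24). Trp53 had a log2 fold change of -0.29 and edgeR adjusted p = 0.107. Cdkn2a, the locus of p16 and p19Arf, was at 15.3, 19.2 and 17.5 CPM in WT and 15.8, 36 and 27.2 CPM in Blm KO (log2 fold change 0.60, edgeR adjusted p = 0.264). For Blm KO 1 alone against WT, Cdkn1a and Cdkn2a were at log2 fold changes of -0.03 and -0.13.

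**Figure D4:**
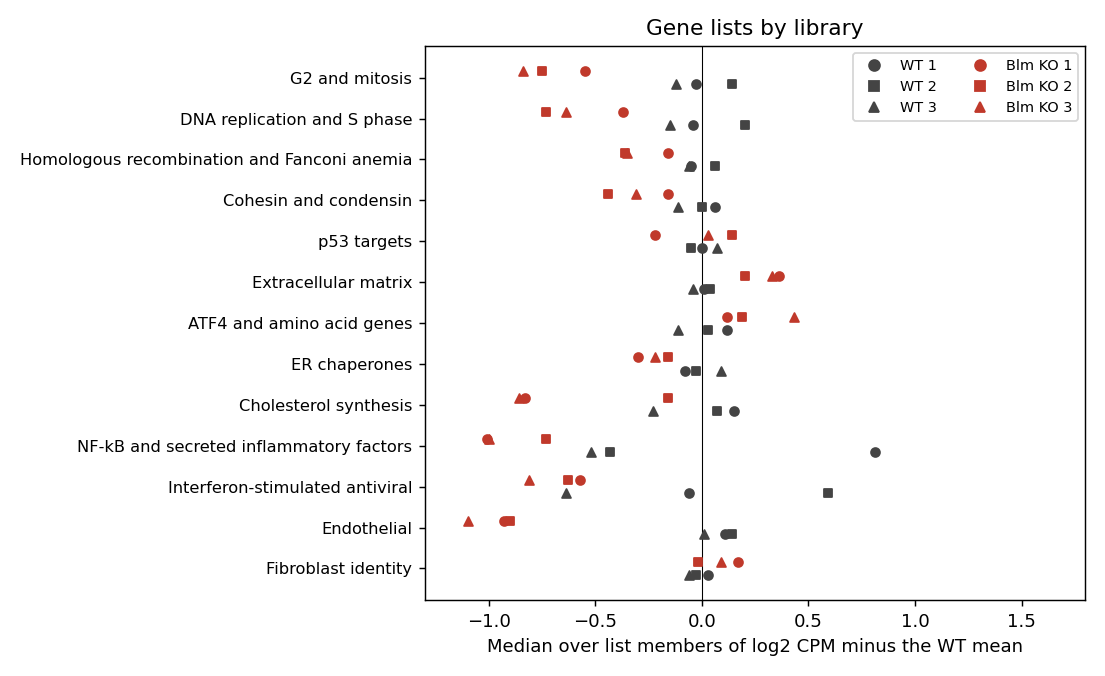
Median over the members of a gene list of log2 CPM minus the WT mean (horizontal axis) for 13 lists, with WT libraries in grey and Blm KO in red and the replicate number as the marker shape. The 3 Blm KO libraries sit left of the 3 WT libraries for G2 and mitosis and for DNA replication and right of them for extracellular matrix, while WT 1 stands far right for the NF-kB list.

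Markers of other cell types were at low levels in most cases and moved with the groups in part. Fibroblast markers, 15 in all, had a median of 0.07 and no edgeR call, with 5 at an unadjusted p under 0.05 and 2 higher by DESeq2, and their summed level was 25800 to 27800 CPM in WT and 30800 to 38900 CPM in Blm KO. Of 10 endothelial markers tested edgeR called 0, 5 had an unadjusted p under 0.05 (1 higher and 4 lower), DESeq2 called 1 higher and 4 lower, and the median was -0.60, or -1.15 without Blm KO 2. The per-library medians of that list were -0.93, -0.90 and -1.10 in Blm KO. Their summed level was 47.8 to 70.6 CPM in WT and 35 to 62.7 CPM in Blm KO. Cdh5, the defining endothelial cadherin, was at 0.351, 0.847 and 1.36 CPM in WT and 0.169, 0.141 and 0.0341 CPM in Blm KO, near the floor of 3 counts, and Erg was at 12.9, 7.95 and 10.5 CPM and at 38, 11.9 and 28.4 CPM.

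Of 15 neural and glial markers tested Map2 was the one call, 11 were negative, and the median was -0.50, or -0.14 without WT 2. Tubb3, the neuronal beta-tubulin, was at 18.4, 29.5 and 27.3 CPM in WT and 8.85, 11.3 and 7.33 CPM in Blm KO (log2 fold change -1.46, edgeR adjusted p = 0.0637), opposite in sign to Map2. The 15 macrophage and blood markers and the 13 epithelial and mesothelial markers had 0 edgeR calls, with 3 each at an unadjusted p under 0.05. Of all tested genes 18.9% reached that p. DESeq2 called 1 and 2 lower, and the medians were -1.02 and -1.25. Without Blm KO 1 these medians were -2.80 and -2.24, and the epithelial median was -0.67 without WT 3. Their summed levels were 8.49 to 23.6 CPM and 55.2 to 173 CPM in WT, and 4.87 to 15.2 CPM and 36.7 to 63.4 CPM in Blm KO. The part of these cells in the results above was not tested.

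The same label difference was read a second time in libraries that the comparison with WT did not use, as double KO minus Recql KO. These libraries were mixed in sex-linked transcripts too. The Y-linked sum was 283, 28.7 and 0.676 CPM in Recql KO 1 to 3 and 3.36, 249 and 6.25 CPM in double KO 1 to 3. The part of this difference in the second contrast was not tested. Both genotypes of that contrast carry Recql -/- in their labels, and the comparison with WT does not. The Recql level of the libraries labelled Recql KO (25.2 ± 4.16 CPM, SD, n = 3) overlapped that of WT (27.7 ± 1.86 CPM), so the count showed no loss of transcript. The allele design is not given, and gene-level counts do not show which part of a transcript remained. The label itself was therefore not tested. The contrast gave 3681 calls (24.7% of tested genes), with 13.2% of tested genes higher and 11.6% lower. Of the 112 genes, 85 (75.9%) had the same sign in it, against 54.4% of all tested genes. They were called in the same direction in 56 cases (50%, against 14.9% of all tested genes), of which 27 were higher and 29 lower. In 5 cases they were called in the opposite direction, and in 51 they were not called. The fit gave each gene 1 estimate of the spread over all 12 libraries, so a call in the first contrast favoured a call in the second. The 14.9% over all genes were not chosen in this way, so the 2 shares are not on equal terms. The number called the same way was 34 of 140 calls (24.3%) when each contrast was fitted on its own 6 libraries. It was 27 of 43 (62.8%) with a covariate for the Y-linked level and 310 of 968 (32%) with DESeq2. In double KO minus Recql KO the NF-kB list again lay lower (median -1.95, 20 of 28 called lower). The interferon-stimulated list did too (-1.31, 8 of 40 called lower), and extracellular matrix again lay higher (0.65, 20 of 39 called higher). Opposite in sign were cholesterol synthesis (0.68, 6 of 24 called higher), endothelial (1.24, 3 of 10) and epithelial markers (2.56, 8 of 13). The macrophage median was also opposite (2.41), with 1 of 15 called higher and 1 lower.

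Genes with nearly equal effects in both contrasts included Hddc3 (log2 fold changes 2.40 and 2.66), Ngrn (1.11 and 1.01), Uggt2 (1.67 and 1.49), Rps15a-ps6 (2.80 and 2.83), Mnda (-2.80 and -2.95) and Klf13 (1.07 and 1.25). The difference of the 2 effects was itself called for 41 of the 112 (36.6%, against 10.4% of all tested genes). That difference subtracts the effect by which the 112 were chosen, so the choice favours it. Gfra2, Syt17 and Rnaset2b were among those 41, and so was Gbp2b, whose second effect rests on 1 count. Syt17 rose in Blm KO and was lower in double KO than in Recql KO (1.26 and -2.64), where the Recql KO libraries were at 19, 27.6 and 21.5 CPM against 2.05, 1.33 and 2.37 CPM in WT. Rnaset2b and Tagap1 fell in Blm KO and were at WT-like levels in double KO, at 18.4, 12.9 and 14.5 CPM and 15.3, 17.7 and 15 CPM. Of the run of 8 called genes on chromosome 17, 2 were called the same way in the second contrast (3300005D01Rik and Tagap), and for 5 the difference of effects was called.

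**Figure D5:**
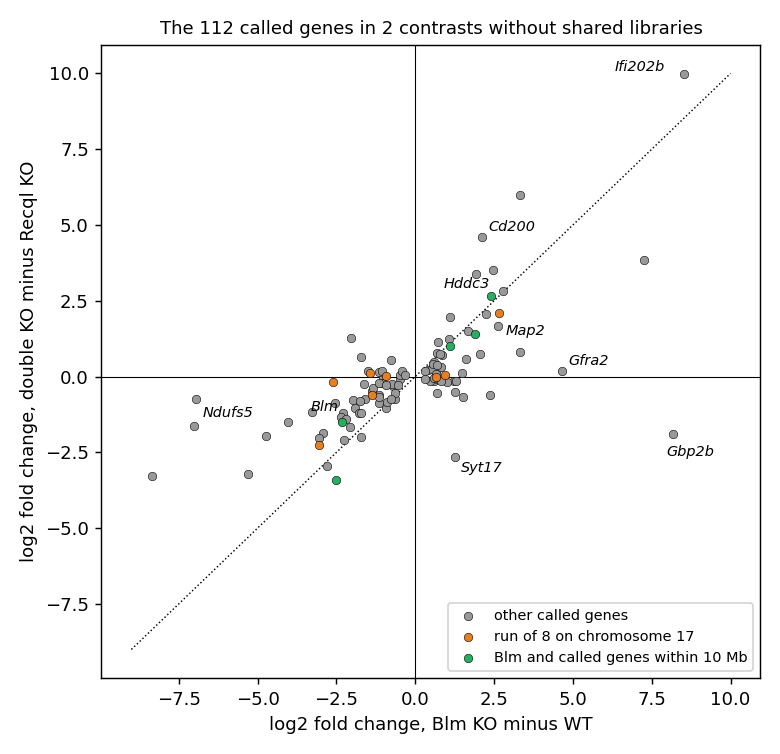
Log2 fold change of the 112 called genes in Blm KO minus WT (horizontal) against double KO minus Recql KO (vertical), each point a gene, with the line of equality dotted. Genes near Blm (green) lie close to the line, the run on chromosome 17 (orange) is split between the line and the zero of the vertical axis, and Syt17 lies below zero on the vertical axis. The height of Gbp2b is a fitted value from groups of 1 and 0 counts and has no reading.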

How the data were processed

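The authors deposited 1 table of RSEM expected counts per gene, in which 17.4% to 20.2% of a library's values were not whole. Per the submitters' processing notes, Bowtie2 2.1.0, RSEM 1.2.15 and mm10 were used; annotation version and strand setting are not given in the sources used here. Per the labels, polyadenylated RNA and a stranded kit were used.

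Counts were rounded, filtered by filterByExpr (14876 of 24054 genes) and tested in R 4.3.3 with edgeR 4.0.16 (TMM scaling, 1 mean per genotype over all 12 libraries, 8 residual degrees of freedom, robust quasi-likelihood F test, Benjamini-Hochberg adjustment, call at 0.05). DESeq2 1.42.0 and the other settings of the closing section were alternatives. Tested on counts simulated for Blm KO against WT with 14748 genes, the steps recovered 46%, 65% and 90% of genes changed 1.5-fold, 2-fold and 4-fold, with 6 false among 139 calls.

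The 38 gene lists and the members were chosen with earlier results of these data known. Named genes are Blm, Recql, Cdkn1a, Trp53, Cdkn2a, the 20 called genes with the highest and the 20 with the lowest log2 fold change at a mean of at least 1 CPM without a predicted symbol, the 10 with the smallest p, called genes within 10 Mb of Blm, and, per list, called members, the most abundant and those with the smallest p; others were picked after their values were seen. Some genes are not reported here. Transcript identity was computed with blastn on GENCODE M21. Replicate libraries differed by more than counting noise (chi-square per degree of freedom 50.9 to 167).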

Additional observations from a re-analysis of the deposited data

Results flagged for a closer look

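Among 43 called genes named for their size, p-value or distance to Blm, 17 had a called difference between the effect in double KO minus Recql KO and the effect in Blm KO minus WT (edgeR interaction test, adjusted over all tested genes). Differences are log2, second contrast minus first. Gbp2b is given no value, since it held 1 count over the Recql KO libraries and 0 over double KO. The differences were negative for Gfra2 (-4.49), Syt17 (-3.89, edgeR adjusted p = 0.000908), Ugt1a6b (-2.97), Sytl1 (-2.48), Gpr137b (-2.21) and 3110052M02Rik (-1.36), all higher in Blm KO than in WT. For Ndufs5 (6.20), Pld5 (3.31, edgeR adjusted p = 0.00561), Rnaset2b (2.44, edgeR adjusted p = 0.00291), Lepr (2.37), Tagap1 (1.55, edgeR adjusted p = 0.0014), Emx2os (1.08) and Atf3 (0.89), which were lower in Blm KO, the second effect was the smaller fall or a rise. Cd200 (2.49) and Pdgfrl (1.48) rose in both contrasts, and by more in the second. Of all tested genes, 10.4% had a called difference. The 43 genes were chosen mostly for a large or clear first effect, which the difference subtracts. A smaller second effect is therefore favoured by the choice, and the direction of these differences is no further result. The 2 contrasts share no library but share 1 estimate of the spread, and the causes were not tested.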

How the results depend on the processing

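The number of calls (112) was 968 with DESeq2, 43 with a covariate for the Y-linked level and 2 in a fit limited to libraries with high Y-linked transcripts. Leaving out 1 of the 12 libraries gave 31 to 572. The number called the same way in double KO minus Recql KO (56) was 310 of 968 and 27 of 43 in those settings. It was 34 of 140 with fits on the groups compared only, and 18 to 195 without 1 library. In a fit limited to libraries with high Y-linked transcripts, Blm KO 1, Recql KO 1 and double KO 2 each stood alone in their group. The spread then came from WT only, so calls of that fit are not counted. The other alternatives stayed within 1.5 times: 84 calls without a filter on low counts, 110 with CPM above 1 in 3 libraries, 116 with RLE scaling, 101 after thinning to the smallest total, 123 without X and Y genes and 140 with the 6 libraries alone, of which 63 were among the 112. Same-numbered libraries had correlations of 0.07, 0.14 and 0.10 in their deviations from the group means, so the numbers were not shown to pair them. With the replicate block 120 genes were called, 83 of them among the 112, and 64 were called the same way in the second contrast. Cdkn1a and Cdkn2a reversed (-0.03 and -0.13) in the fit limited to libraries with high Y-linked transcripts. The cause of these changes was not tested. Of 55 uncalled genes followed, 38 were called in at least 1 setting.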
